A study of Mus musculus with 5 samples.

Results

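Oxidative phosphorylation is carried out by 5 protein complexes of the inner mitochondrial membrane, whose subunits are encoded partly in the nucleus and partly in the mitochondrial genome. The gene set described here holds the structural subunits of these complexes, chosen by symbol: nuclear genes of the Nduf a, b, c, s and v families, Sdha to Sdhd, the Uqcr family, the Cox4 to Cox8 families and the Atp5 family, together with the mitochondrially encoded ND, CYTB, COX and ATP genes. It has 97 members among 36529 gene rows, 84 of them nuclear and 13 mitochondrially encoded. Complex I has 37 nuclear and 7 mitochondrial members, complex II 4 nuclear members, complex III 8 and 1, complex IV 18 and 3, and complex V 17 and 2. The symbol rule leaves out 1 pseudogene row. It also takes in Atp5s and Atp5sl, which despite their names are not subunits of the ATP synthase, and Ndufa4 and Cox7a2l, whose products are associated with complex IV and with supercomplexes. Complexes were assigned by symbol, so Atp5s and Atp5sl are counted under complex V. Ndufa4 and its paralog Ndufa4l2 are counted under complex I, and the medians per complex below use the same assignment.

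Complexes I and II pass electrons to ubiquinone, complex III passes them on to cytochrome c and complex IV to oxygen. Complexes I, III and IV pump protons, and complex V, the ATP synthase, makes ATP from the gradient. The mitochondrial genome is transcribed as long precursors from both strands, so its mRNAs and its 2 ribosomal RNAs share promoters, while each nuclear subunit gene has its own. In islet endocrine cells, ATP from this pathway couples nutrient supply to hormone secretion.

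Single-cell libraries (10x Chromium Single Cell 3' chemistry, version 2) came from mice with Gcgr, which encodes the glucagon receptor, knocked out. Pancreatic tumors of homozygous knockout mice gave 3 libraries from 3 animals, islets of homozygous knockout mice gave 1 library, and islets of heterozygous mice gave 1 library. No wild-type library was used here, and ages and strains are not in the labels. The title of the series asks how tumors arise from a subset of alpha cells, the glucagon-producing islet cells, when the receptor is lost. The tumor libraries could not be tied to the numbered tumor samples and are called A, B and C in order of their number of cells.

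After removal of doublets the tumor libraries held 496, 846 and 1084 cells (A, B and C), the homozygous islet library 2843 and the heterozygous islet library 1326. Before that removal the libraries held 10508498 to 34101553 unique molecular identifiers (UMIs, 1 per captured transcript). The kept alpha-like cells compared here had medians of 10002.5 to 26091.5 UMIs. Alpha-like cells are all kept tumor cells and the cells that the authors classified as alpha, 1525 in the homozygous and 306 in the heterozygous islets. The summed level of 8 alpha cell markers was 414410 to 438330 UMIs per 1000000 (CPM) in the tumor libraries, against 394420 in homozygous and 387260 in heterozygous alpha cells. Gcgr had 0, 1 and 3 UMIs in tumor libraries A, B and C and 0 in the homozygous islets, against 137 in the heterozygous islets. No cell name occurred in more than 1 library. The authors' classes followed the libraries: cells of library A were typed almost all as Tumor 3, those of B as Tumor 4, and those of C as Tumor 1 (690 cells) and Tumor 2 (391).

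The mitochondrial transcripts are shown first by sequence, because copies of mitochondrial DNA in the nuclear genome bear on how well each one can be counted. In the GRCm38 annotation (GENCODE), stretches at least 99% identical to a nuclear pseudogene transcript cover 99.6% of ATP6, 99.6% of COX2, 99.9% of COX3, 99.1% of ND3, 99% of ND4L, 63.6% of ND4, 31.3% of COX1 and 21.1% of ATP8. They cover 0% of ND1, ND2, ND5, ND6 and CYTB, and 0 of the last 100 bases of ND4, the end that a 3' library reads. The 4 pairs below are 60 aligned bases near the 3' end of each transcript and of its nuclear copy, with capitals at the bases that differ. Of these pairs 2 have no difference and 2 have 3 and 5.
ATP6 (chrM:8545-8604, plus strand): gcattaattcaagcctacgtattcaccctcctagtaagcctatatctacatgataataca
Gm10925 (chr1:24613974-24614033, minus strand): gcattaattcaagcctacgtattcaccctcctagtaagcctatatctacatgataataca
COX1 (chrM:6813-6872, plus strand): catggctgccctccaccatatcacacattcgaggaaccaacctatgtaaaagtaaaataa
Gm29216 (chr1:24615706-24615765, minus strand): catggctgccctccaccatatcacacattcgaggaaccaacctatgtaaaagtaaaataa
ND2 (chrM:4892-4951, plus strand): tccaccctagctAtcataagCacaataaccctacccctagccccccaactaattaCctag
Gm13339 (chr2:22590024-22590083, minus strand): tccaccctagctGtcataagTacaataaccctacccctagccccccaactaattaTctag
CYTB (chrM:15228-15287, plus strand): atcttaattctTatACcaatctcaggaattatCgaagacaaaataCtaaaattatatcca
Gm11410 (chr4:80005072-80005131, plus strand): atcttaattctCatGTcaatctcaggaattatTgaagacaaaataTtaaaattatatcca
The levels followed this division in part. Per kilobase of transcript, CYTB was at 3789 to 6874 CPM in the tumor libraries and at 2483 (homozygous) and 2279 (heterozygous) in islet alpha cells. ND1 was at 4482 to 7203 CPM per kilobase in tumors, against 2165 and 2498. ATP6 reached 22.6 to 55.4 CPM per kilobase in tumors, against 6.30 and 7.45, and COX2 5.82 to 27.2, against 2.91 and 3.41. ND6, which has no such copy, was also low at 9.41 to 46.7 CPM per kilobase in tumors, against 13 and 21.8. The copies of 99% identity or more are not among the gene rows, and their part in the low levels of ATP6, COX2, COX3, ND3, ND4L and ATP8 was not tested; values of these 6 genes and of COX1 are uncertain for that reason.

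The nuclear members have no common promoter, but many share short elements just upstream of their start sites. RefSeq promoter windows (GRCm38.p6, 250 bases before to 50 after the start) were matched for 69 of the 84 nuclear members. The core of sites of nuclear respiratory factor 1 (NRF1), searched as GCGCATG or CATGCGC on the other strand, occurred in the windows of 13 members (18.8%), against 1192 of 27025 genes (4.41%). Both forms overlap in a palindromic site, which was counted once per gene. The core of ETS-family sites, to which the factor GABP binds, is CCGGAAG or CTTCCGG on the other strand. It occurred in 16 members (23.2%), against 2683 genes (9.93%). Of the 6 members with both elements, 2 whose NRF1 element is palindromic are shown, with the elements in capitals. A match describes letters and not binding.
Cox6a1 (chr5:115348909-115349208, minus strand): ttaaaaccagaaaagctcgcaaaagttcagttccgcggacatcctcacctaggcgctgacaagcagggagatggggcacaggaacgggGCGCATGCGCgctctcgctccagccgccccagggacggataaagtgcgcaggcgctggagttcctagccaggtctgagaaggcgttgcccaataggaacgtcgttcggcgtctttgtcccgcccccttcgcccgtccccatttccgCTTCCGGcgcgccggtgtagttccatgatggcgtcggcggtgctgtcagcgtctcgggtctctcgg
Atp5k (chr5:108434350-108434649, minus strand): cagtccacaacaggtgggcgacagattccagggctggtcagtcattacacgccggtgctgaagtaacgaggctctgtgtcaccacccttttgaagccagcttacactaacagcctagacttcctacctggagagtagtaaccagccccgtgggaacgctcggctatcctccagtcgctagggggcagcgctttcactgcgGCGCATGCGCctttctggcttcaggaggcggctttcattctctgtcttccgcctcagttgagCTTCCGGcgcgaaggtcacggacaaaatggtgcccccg

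Tumor cells were first set against islet alpha cells, and the members that passed the test were mitochondrially encoded. ND2 and ATP6 rose, by 2.47 and 2.31 on the log2 scale, and 8 of the 10 mitochondrial members tested were higher in all 3 tumor libraries than in both islet libraries. Of the 78 nuclear members tested 0 passed in either direction. Libraries were compared by the mean CPM over cells, with limma on log2(CPM + 1) and Benjamini-Hochberg adjustment over 10234 genes, at an adjusted p below 0.05. Of these genes 2.08% rose and 0.137% fell, and the median gene was 0.25 higher in tumors on the log2 scale (-0.01 with TMM factors). Changes relative to that median are given where they are so named. Among all genes tested, 33.7% had all 3 tumor libraries above both islet libraries and 5.62% had them below.

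ND2 (Entrez 17717, chrM:3914-4951 in GRCm38) encodes a proton-pumping subunit of complex I. Its level was 1286, 948 and 1685 CPM in tumor libraries A, B and C, against 167 CPM in homozygous and 315 CPM in heterozygous alpha cells. The groups did not overlap, and tumor C was the highest library and homozygous alpha cells the lowest. The log2 change was 2.47 with a standard error of 0.38, or 2.22 relative to the median gene (limma, adjusted p = 0.0286). ATP6, the proton channel subunit of complex V, was at 37.7, 15.4 and 33.7 CPM in the tumors and at 4.29 and 5.07 CPM in homozygous and heterozygous alpha cells. Its log2 change was 2.31 ± 0.39 (SE; limma, adjusted p = 0.0312). All 3 tumor libraries again lay above both islets; this is the transcript with an identical nuclear copy shown above.

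The other complex I transcripts of the mitochondrial genome did not pass the test. ND1 was at 4893, 4289 and 6893 CPM in tumors A, B and C and at 2072 and 2390 CPM in homozygous and heterozygous alpha cells, a log2 change of 1.24 (limma, adjusted p = 0.12). ND4 was at 2975, 2489 and 4055 CPM in tumors, against 1248 and 1228 CPM (log2 change 1.33, adjusted p = 0.09). ND5 was at 439, 248 and 609 CPM in tumors, against 120 and 133 CPM (log2 change 1.67, adjusted p = 0.072). For these 3 genes every tumor library lay above both islet libraries. ND6, the one mitochondrial member encoded on the other strand, overlapped between groups, with 8.60, 4.88 and 24.3 CPM in tumors and 6.76 and 11.3 CPM in alpha cells. ND3, ND4L and ATP8 stayed under the filter of 5 CPM in 2 libraries. ND3 was at 1.37 to 4.14 CPM in tumors, against 0.821 and 2.2 CPM, and ND4L and ATP8 were at most at 1.02 and 0.437 CPM in any library.

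CYTB, the cytochrome b of complex III, was at 4559, 4334 and 7864 CPM in tumors A, B and C, against 2841 and 2607 CPM in homozygous and heterozygous alpha cells. All tumor libraries were above both islets, but the log2 change of 0.98 did not pass (limma, adjusted p = 0.21). Among the catalytic core subunits of complex IV, COX1 was at 698, 345 and 673 CPM in tumors and at 222 and 146 CPM in alpha cells, also without overlap (log2 change 1.59, adjusted p = 0.079). COX2 was at 18.6, 3.98 and 10.8 CPM in tumors, against 1.99 and 2.33 CPM (log2 change 1.73, adjusted p = 0.13). COX3 overlapped, with 52.4, 12.8 and 31.6 CPM in tumors and 12.3 and 18.8 CPM in alpha cells. In all 8 tested genes without overlap the lowest tumor library was B, and in COX1, COX2 and ATP6 the highest was A. The median change of the 10 tested mitochondrial members was 1.46 on the log2 scale, or 1.22 above the median gene.

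**Figure D1:**
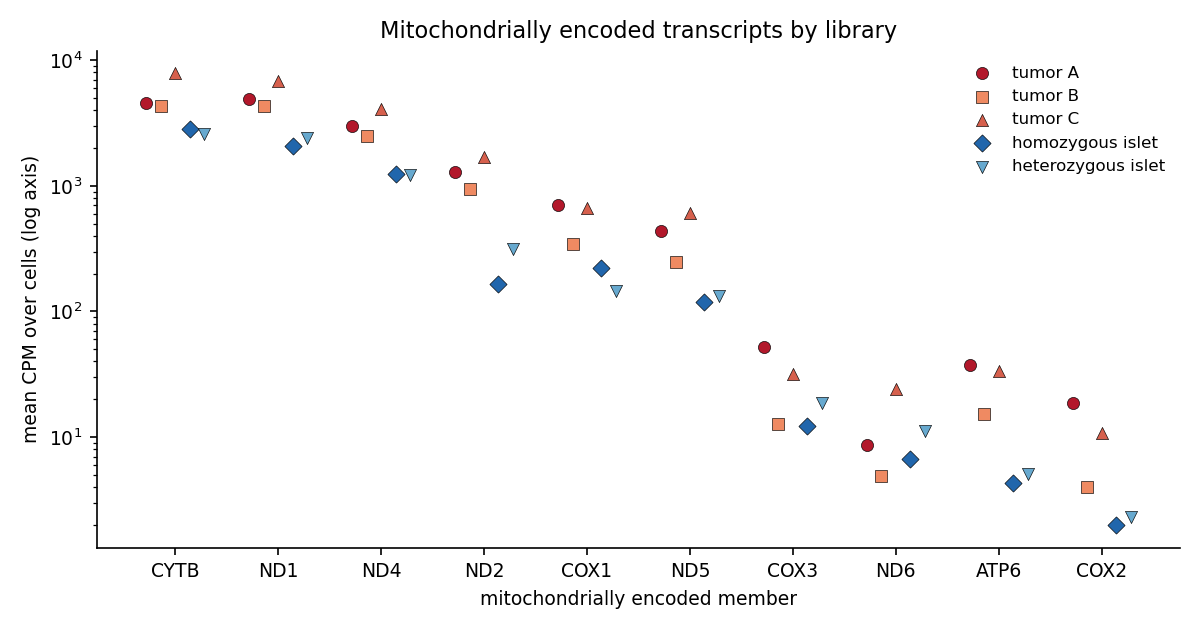
Mean CPM over cells (log axis) of the 10 tested mitochondrially encoded members in the 3 tumor libraries and in alpha cells of the homozygous and heterozygous islet libraries, 1 point per library. The 3 tumor points lie above both islet points for all genes but COX3 and ND6.

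The 2 ribosomal RNAs of the mitochondrial genome moved with the mRNAs. Rnr1 was at 130, 83.1 and 106 CPM in tumors A, B and C, against 10.2 and 11.9 CPM in homozygous and heterozygous alpha cells, and rose by 3.14 ± 0.27 on the log2 scale (SE; limma, adjusted p = 0.00502). Rnr2 was at 577, 469 and 946 CPM in tumors, against 91.9 and 149 CPM, and rose by 2.43 ± 0.37 (adjusted p = 0.0286). Neither RNA had overlapping groups. Neither has a nuclear copy of 99% identity.

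Nuclear members stayed near the median gene in every complex. Their median change was 0.20 on the log2 scale over 78 tested members, which is 0.05 below the median gene, and 34 of the 78 lay above it. Relative to the median gene, complex medians were -0.07 (I, 36 members), -0.11 (II, 4), -0.03 (III, 8), -0.00 (IV, 13) and 0.12 (V, 17). Between the groups, 17 nuclear members had all tumor libraries above both islets and 2 had them below, beside the 33.7% and 5.62% of all genes. At an unadjusted p under 0.05, 7 of 78 nuclear members were higher and 0 lower, beside 1923 and 269 of all 10234 genes, so the members' share is below that of all genes; edgeR called 0, and DESeq2 0 higher and 2 lower.

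The core subunits named here changed little on average between tumor and alpha cells, while single libraries differed more for some. Ndufs1, the largest iron-sulfur subunit of complex I, was at 31.0, 27.4 and 25.4 CPM in tumors A, B and C, against 22.7 and 28.8 CPM in homozygous and heterozygous alpha cells. Atp5b, the catalytic beta subunit of complex V, was at 341, 497 and 376 CPM in tumors, against 387 and 397 CPM. Cox4i1, the regulatory subunit of complex IV present in most tissues, was at 921, 953 and 970 CPM in tumors, against 1004 and 872 CPM. For each of the 3 the groups overlapped. The core members Ndufv1, Sdha, Sdhb, Uqcrc1, Uqcrfs1 and Atp5a1 had log2 changes of -0.13 to 0.22, with adjusted p of 0.64 or more. Among them Atp5a1 was at 131, 330 and 272 CPM in tumors A, B and C, against 238.5 and 258.3 CPM in homozygous and heterozygous alpha cells. Sdhb was at 99.6, 167 and 156 CPM in tumors, against 132 and 117 CPM.

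Nuclear members far from the median gene did not pass either. Atp5g1, Atp5g2 and Atp5g3 encode the same mature c subunit of the ATP synthase rotor. Atp5g3 was at 285, 295 and 343 CPM in tumors A, B and C, against 178 and 165 CPM in homozygous and heterozygous alpha cells (log2 change 0.83; limma, adjusted p = 0.12). Atp5g1 was at 115, 139 and 103 CPM in tumors, against 79.0 and 54.8 CPM (log2 change 0.84, adjusted p = 0.14). Neither overlapped, whereas Atp5g2 did, with 59.1, 38.3 and 51.1 CPM in tumors and 24.0 and 49.2 CPM in alpha cells. Cox7c, a small complex IV subunit, was at 156, 143 and 210 CPM in tumors, against 81.7 and 98.6 CPM (log2 change 0.89, adjusted p = 0.12). On the low side, Sdhd, a membrane anchor of complex II, was at 72.7, 87.4 and 66.2 CPM in tumors, against 98.8 and 118 CPM (log2 change -0.52, adjusted p = 0.27). Cox7a2l was at 132, 102 and 130 CPM in tumors, against 145 and 185 CPM (log2 change -0.44, adjusted p = 0.37); Sdhd and Cox7a2l were the 2 tested nuclear members with all tumor libraries below both islets.

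**Figure D2:**
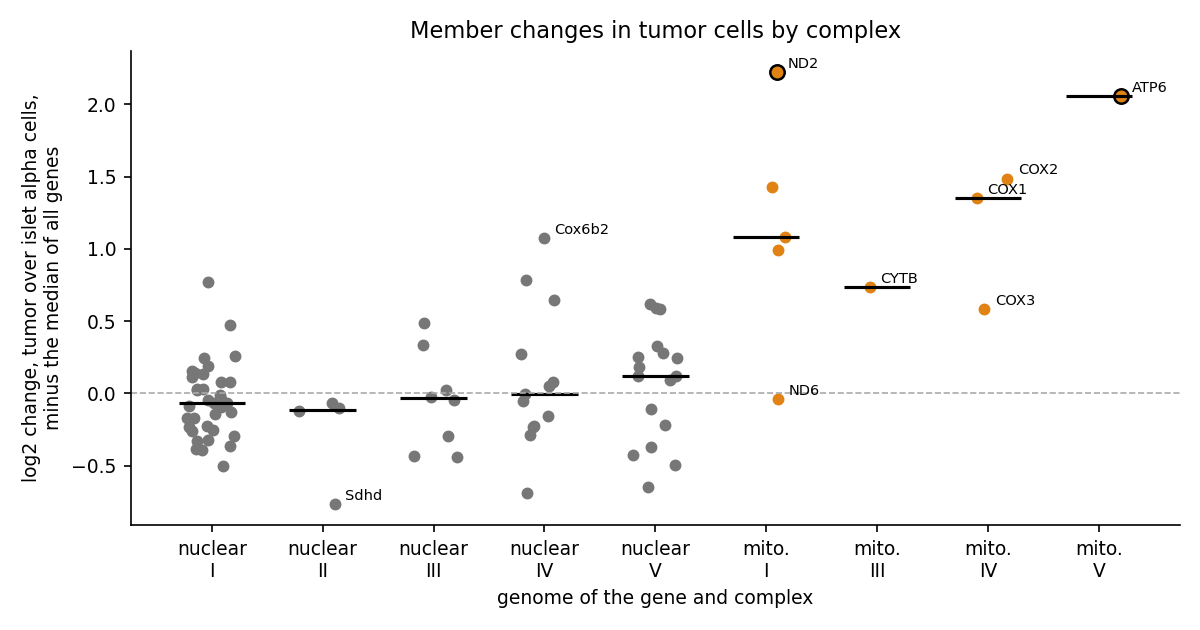
Log2 change of each tested member, tumor over islet alpha cells, minus the median of all genes, by genome and complex (grey nuclear, orange mitochondrial, bars medians, black outline for adjusted p below 0.05). Nuclear medians lie between -0.11 and 0.12, and 9 of 10 mitochondrial members lie above 0.

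Summed over members, the split between genomes was also seen library by library. Mitochondrial members summed to 14973, 12692 and 21882 CPM in tumors A, B and C, against 6695 and 6858 CPM in homozygous and heterozygous alpha cells. Nuclear members summed to 19941, 29347 and 23729 CPM in tumors, against 21170 and 18332 CPM. The mitochondrial sum was thus separate between groups, at 16516 ± 4785 CPM in tumors (SD, n = 3) and a mean of 6777 CPM in the islets, 2.44 times as high. The nuclear sum overlapped (24339 ± 4733 CPM in tumors and a mean of 19751 CPM in islets). Their ratio was 0.751, 0.432 and 0.922 in tumors A, B and C, against 0.316 and 0.374 in the islets. Tumor B had the lowest mitochondrial sum, the highest nuclear sum and the lowest ratio of the 3 tumors. These sums are described without a test.

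Cell by cell, the mitochondrial share of UMIs had a median of 1.25% in tumor A (quartiles 0.917% and 1.8%), 1.18% in B (0.944% and 1.46%) and 2.00% in C (1.59% and 2.55%). In homozygous alpha cells it was 0.583% (0.442% and 0.779%) and in heterozygous alpha cells 0.586% (0.476% and 0.751%). The lower quartile of every tumor library was above the upper quartile of both islets. The nuclear share had medians of 1.89%, 2.87% and 2.26% in tumors A, B and C, against 2.03% and 1.76%. Within a library the 2 shares were related across cells with a Spearman rho of 0.14, 0.31 and 0.29 in tumors A, B and C, against 0.46 and 0.40 in homozygous and heterozygous alpha cells. These are descriptions over 306 to 1525 cells of 1 library each, which share their library, their total and its sampling noise.

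Other measures moved with the tumor comparison. Cells with UMIs of 2 or more of 11 cell cycle genes were 12.1%, 9.34% and 12.8% of tumors A, B and C, against 0.852% of homozygous and 0.654% of heterozygous alpha cells. In non-cycling cells alone ND2 and ATP6 still passed, and the median mitochondrial change was 1.23 above the median gene. Median depth was 19867.5, 26091.5 and 19378.5 UMIs per tumor cell, against 14086 and 10002.5. The 8 hormone transcripts took 43.0%, 41.3% and 40.7% of UMIs in tumor cells, against 55.5% and 46.8% in homozygous and heterozygous alpha cells. These 8, called hormone transcripts throughout, are Gcg, Ins1, Ins2, Ppy, Pyy, Sst, Iapp and Ttr. Of them Ttr encodes a carrier protein and not a hormone, and it is also among the alpha cell markers. The transcript Ppy stood at 2099, 261 and 517 CPM in tumors, against 75515 and 16431 CPM, and 8 beta cell markers summed to 8.32, 146 and 2917 CPM, against 11964 and 57989 CPM. Macrophage markers (6 genes) summed to 187, 46.2 and 268 CPM in tumors, against 73.6 and 219 CPM, endothelial markers (5 genes) to at most 43.1 CPM and stellate markers (5 genes) to at most 22.5 CPM in any library; no listed marker was at 0 in all libraries. Tumor cells also came from a deposited table of their own, with cell totals of exonic UMIs, and islet cells from tables with totals of all UMIs. With each cell's own sum of recovered UMIs as its total, ND2 and ATP6 still passed. Other differences between the tumor and islet tables cannot be told apart from tumor state. The part of depth and of hormone or other cell types' RNA in the tumor result was not tested, beyond the totals without hormones given next.

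The calls of ND2 and ATP6 are not stable against scaling, the filter and single libraries. Neither passed with TMM factors (38 genes higher and 9 lower, against 213 and 14), with totals free of hormone transcripts (49 and 9), with edgeR on the recovered UMIs (14 and 1) or with no filter on low values (6 and 0). Neither passed without tumor A, without the homozygous or without the heterozygous islets, and without tumor C only ND2 did. In the 7 fits in which neither passed, ND2 was at a log2 change of 2.01 to 2.92, and the mitochondrial median 0.91 to 1.37 above the median gene. Rnr2 lost its call in the same 7 fits, and Rnr1 without the heterozygous islets.

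The islet arm mixes genotypes, so alpha cells of homozygous islets were also set against those of heterozygous islets. There is 1 library per genotype and so no test; ratios carry exact 95% intervals (conditional binomial, Clopper-Pearson) that cover counting error only. Summed mitochondrial members had a ratio of 1.03 in alpha cells (1.01 to 1.04), and few single members stood apart. A gene counted as apart when it had 50 CPM or more in 1 genotype and its interval lay beyond 1.5-fold. Of 1952 genes with that level, 4.51% were higher and 16.2% lower in homozygous cells, with a median ratio of 0.857. Of 68 nuclear members 3 were higher and 0 lower, with a median ratio of 1.10, and of 6 mitochondrial members 0 were higher and 1 lower, with a median ratio of 0.999. The nuclear share of higher genes was thus near the background. Lower nuclear members were 0, beside 16.2% of all genes, and the nuclear median ratio lay above that of all genes. With hormone-free totals 11 nuclear members were higher, and 8 in the largest alpha cluster of each library, where ND2 was no longer beyond the bound. The shares of all genes in these settings are not given here, so the counts of 11 and 8 are not set against a background.

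Ndufa1, a small membrane subunit of complex I encoded on the X chromosome, was at 878 CPM in homozygous (19464 UMIs) and 330 CPM in heterozygous alpha cells (1062 UMIs). Its ratio was 2.66 (2.50 to 2.83) in alpha cells, against 1.2 (0.977 to 1.48) in endothelial cells of the same 2 libraries. Cox5a, a nuclear subunit of complex IV, was at 104 CPM in homozygous and 47.0 CPM in heterozygous alpha cells, a ratio of 2.22 (1.89 to 2.64), and at 1.16 (0.962 to 1.41) in endothelial cells. Ndufa4 was at 486 CPM in homozygous and 261 CPM in heterozygous alpha cells, a ratio of 1.86 (1.73 to 2.00), and at 1.01 (0.870 to 1.16) in endothelial cells. For these 3 genes the alpha cell interval lay wholly above the endothelial one.

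ND2 went the other way, at 153 CPM in homozygous and 298 CPM in heterozygous alpha cells, a ratio of 0.514 (0.478 to 0.552). It had a ratio of 0.535 (0.361 to 0.777) in endothelial cells and of 1.06 in beta cells. ND1 and CYTB, which carry most of the mitochondrial sum, had alpha cell ratios of 0.918 (0.895 to 0.941) and 1.15 (1.12 to 1.18). COX1 stood at 1.55 (1.41 to 1.71) in alpha and at 1.73 (1.34 to 2.23) in endothelial cells. ND2 and COX1 thus lay on opposite sides of 1 in both cell types. The testis isoform gene Cox6b2 was under the level rule, with 324 UMIs in homozygous and 5 in heterozygous alpha cells, a ratio of 9.40 (3.99 to 29.2). Cox6a2, the muscle-type isoform gene, had 43 UMIs in homozygous and 61 in heterozygous alpha cells, a ratio of 0.102 (0.0676 to 0.154). Nearest to the 1.5-fold bound were Ndufa4, just beyond it, and Ndufv3 and Uqcrq, at ratios of 1.59 and 1.58, whose lower limits fell just short of it.

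**Figure D3:**
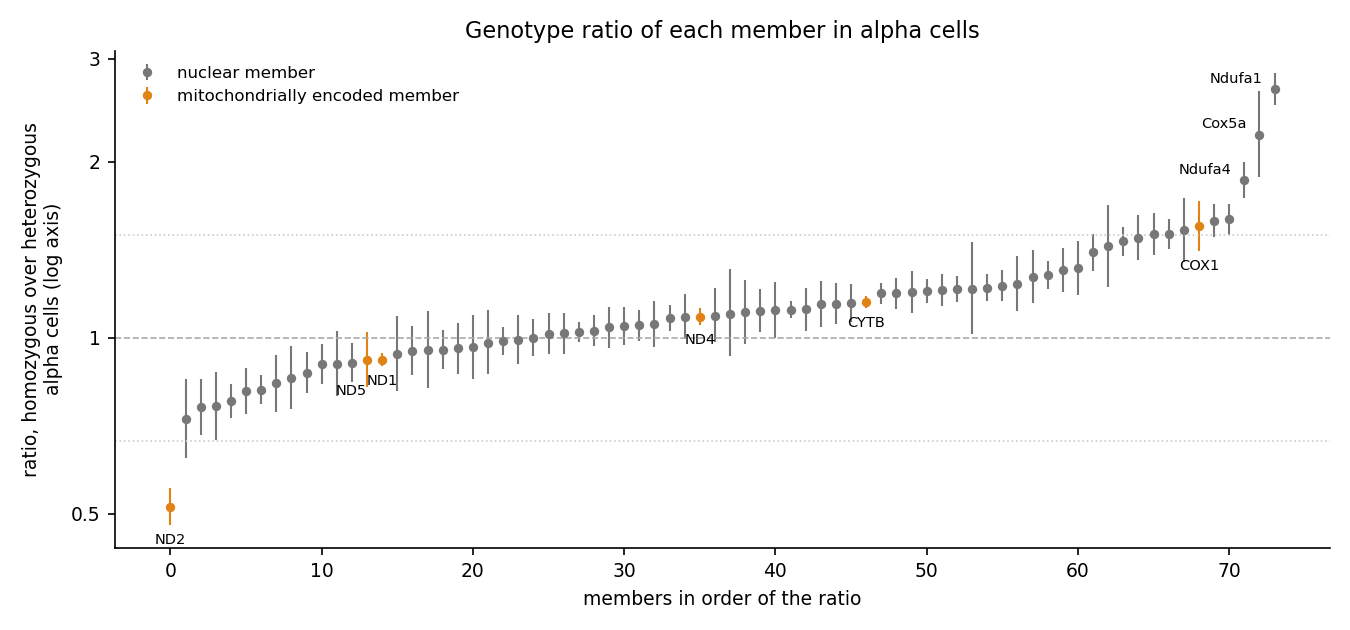
Ratio of homozygous over heterozygous alpha cells (log axis) for the members with 50 CPM or more in 1 genotype, in order of the ratio, with exact 95% intervals for counting error; dotted lines mark 1.5-fold. Ndufa1, Cox5a and Ndufa4 lie above the band and ND2 below it.

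Clusters within 1 library share their handling, and 2 pairs allowed a comparison of the genomes. In tumor library C, Tumor 2 cells had mitochondrial and nuclear sums of 19166 and 21947 CPM, against 23346 and 24814 CPM in Tumor 1 cells, and ratios of the sums of 0.873 and 0.941. ND2 was at 1218 CPM in Tumor 2, against 1816 CPM in Tumor 1, a ratio of 0.671 (0.655 to 0.687). By the interval 0 of 6 mitochondrial members, ND2 included, lay beyond 1.5-fold in either direction. Median log2 ratios were -0.32 for mitochondrial members, -0.14 for nuclear members and -0.17 for all genes. Of 69 nuclear members 0 were higher and 2 lower beyond 1.5-fold by the interval (background 5.04% higher and 8.24% lower). These 2 were Atp5j, a stalk subunit of complex V, with 483 CPM in Tumor 2 and 945 CPM in Tumor 1 (ratio 0.511, 0.493 to 0.529), and Atp5o, the subunit that confers oligomycin sensitivity, with 180 and 297 CPM (0.605, 0.570 to 0.643). Cycling cells were 7.42% of Tumor 2 and 15.9% of Tumor 1 cells, and hormone transcripts took 44.7% and 38.3% of UMIs. With totals free of hormone transcripts the nuclear sum was 39776.5 CPM in Tumor 2 and 40340.1 CPM in Tumor 1. The mitochondrial sum was then 34532.6 CPM in Tumor 2 and 37640.3 CPM in Tumor 1. The part of cycling cells, and of hormone transcripts in the ratios of single members, was not tested.

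In homozygous islets, cells of graph-based cluster 2.1 (947 cells; 574 in cluster 2.2) had a nuclear sum of 23652 CPM, against 17148 CPM in cluster 2.2, and a mitochondrial sum of 7510 CPM, against 5421 CPM. The ratio of the sums was 0.318 in cluster 2.1 and 0.316 in cluster 2.2. Over the 947 and 563 cells typed as alpha, of 68 nuclear members 6 were higher and 0 lower beyond 1.5-fold (background 7.33% higher and 0.701% lower), led by Ndufa1 with 1056 CPM in cluster 2.1 and 564 CPM in 2.2 (ratio 1.87, 1.81 to 1.94). The others were Ndufv3, Uqcrq, Ndufa4, Atp5e and Uqcr11, at ratios of 1.57 to 1.74. ND2 was the 1 mitochondrial member beyond the bound, at 186 CPM in cluster 2.1, against 95.9 CPM in cluster 2.2 (ratio 1.94, 1.79 to 2.1). Median log2 ratios were 0.52 for mitochondrial members, 0.43 for nuclear members and 0.32 for all genes, so the median gene was also higher in cluster 2.1. Hormone transcripts took 52.0% of UMIs in cluster 2.1 and 61.2% in 2.2. With totals free of them the nuclear sum was 49510.9 CPM in cluster 2.1 and 44522.5 CPM in 2.2. The mitochondrial sum was then 15590.7 CPM in cluster 2.1 and 14022.1 CPM in 2.2. The part of hormone transcripts in the ratios of single members was not tested. The authors' clusters may rest on these genes too, and the intervals cover counting error only.

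Cell classes of the islets were compared next, across both islet libraries. Per UMI, beta cells had a lower nuclear sum than alpha cells in both libraries, while the mitochondrial sum was higher in beta cells of one library and slightly lower in the other. Nuclear members summed to 11487 CPM in beta cells, against 21170 CPM in alpha cells of the homozygous library, and to 11979 CPM in beta, against 18332 CPM in alpha cells of the heterozygous library. Mitochondrial members summed to 9434 CPM in beta and 6695 CPM in alpha cells (homozygous) and to 6452 CPM in beta and 6858 CPM in alpha cells (heterozygous). The ratio of mitochondrial to nuclear sum was 0.821 in beta and 0.316 in alpha cells (homozygous) and 0.539 in beta and 0.374 in alpha cells (heterozygous). In both libraries the ratio of beta cells was the highest of the named classes. It was 0.258 to 0.458 in delta, endothelial, stellate, pancreatic polypeptide (PP), macrophage and unnamed cells, while tumor A (0.751) lay between the 2 beta cell values, tumor C (0.922) above them and tumor B (0.432) below them.

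**Figure D4:**
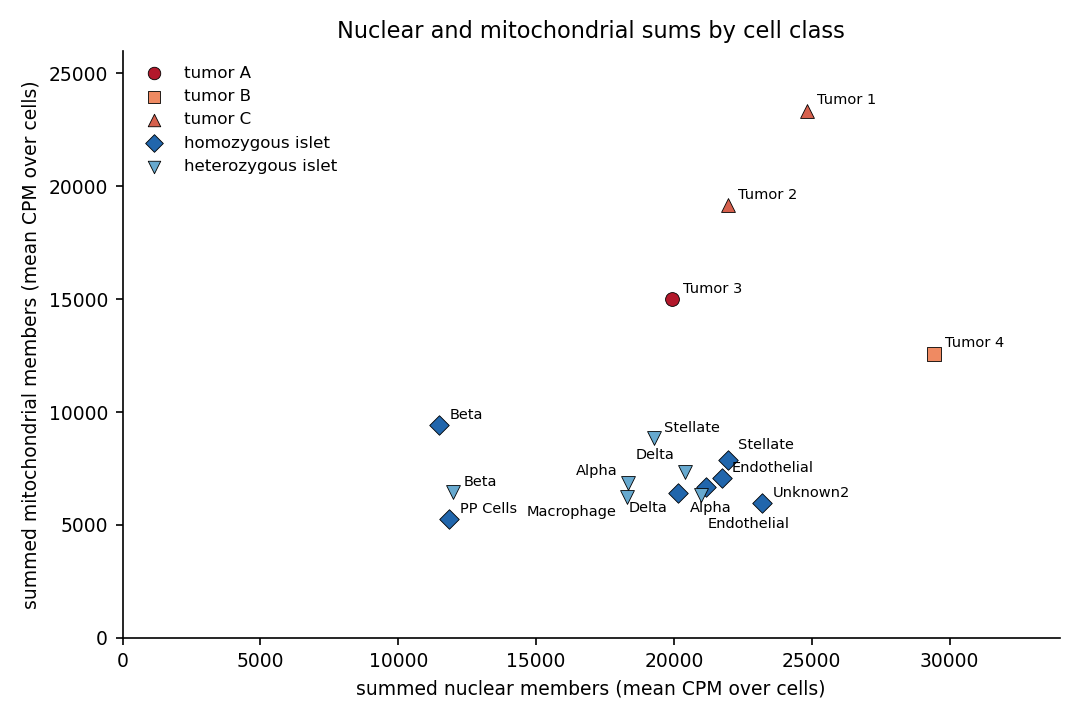
Summed mitochondrial members against summed nuclear members (mean CPM over cells) for each class with 20 or more cells, 1 point per class and library. Tumor classes lie at mitochondrial sums of 12584 to 23346 CPM, above every islet class, and beta and PP cells at the lowest nuclear sums. Neither order held with totals free of hormone transcripts. Mitochondrial sums were then 31774 (homozygous) and 22740 CPM (heterozygous) in beta cells, against 21227 CPM in Tumor 4 and 26103 CPM in Tumor 3. Nuclear sums were then 38488 CPM in PP cells and 38816 and 42558 CPM in beta cells, against 22832 and 22273 CPM in endothelial cells (homozygous and heterozygous).

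In the fit over 5 classes and 2 libraries (limma, library as a block), 11 of 80 nuclear members were lower in beta than in alpha cells and 0 higher, with a background of 3.37% lower and 0.386% higher. The mitochondrial members (10 tested) had 0 calls each way, with 0 at an unadjusted p under 0.05 either. Ndufa6, a complex I accessory subunit, fell to 205 CPM in beta cells, against 637 CPM in alpha cells of the homozygous library, and to 186 CPM, against 587 CPM, in the heterozygous one (log2 change -1.64 ± 0.17 SE, adjusted p = 0.00449). Atp5c1, the rotating shaft of complex V, fell by 1.41 on the log2 scale (adjusted p = 0.00808) and Uqcrh, the hinge protein of complex III, by 1.26 (adjusted p = 0.00846). Uqcrfs1, the Rieske iron-sulfur protein, fell by 1.36 and Sdhd by 1.31. The others were Atp5e, Atp5j, Cox6b1, Ndufa7, Cox6c and Ndufa5, which fell by 0.82 to 1.03. All 5 complexes had negative medians, from -0.54 (II) to -0.91 (V), but the median gene was also lower in beta cells, by 0.45.

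The beta cell result depends on what a level is divided by. The 8 hormone transcripts took 70.0% and 71.7% of UMIs in beta cells of the homozygous and heterozygous libraries, against 55.5% and 46.8% in alpha cells. With totals free of hormones 0 nuclear members were lower and 1, Cox6a2, was higher (98 genes lower and 131 higher in all), and with TMM factors only Ndufa6 was lower and Cox6a2 higher. The nuclear sum without hormones was then 38816 CPM in beta and 47615 CPM in alpha cells (homozygous) and 42558 CPM in beta and 34760 CPM in alpha cells (heterozygous), so that the libraries disagreed in direction. The ratio of mitochondrial to nuclear sum kept its order, at 0.819 in beta and 0.314 in alpha cells (homozygous) and at 0.534 in beta and 0.368 in alpha cells (heterozygous).

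In endothelial cells, where hormone transcripts took 4.75% and 5.72% of UMIs, the largest changes against alpha cells were in Ndufa4l2 and Cox4i2. In the same fit 13 nuclear members were higher and 4 lower in endothelial cells, with a background of 29.2% and 8.23% and a median gene 0.77 higher. Ndufa4l2, a hypoxia-induced paralog of Ndufa4, was at 97.6 CPM in endothelial and 1.55 CPM in alpha cells of the homozygous library, and at 98.8 and 2.85 CPM in the heterozygous one. It rose by 4.99 ± 0.72 on the log2 scale (SE; limma, adjusted p = 0.00143). Cox4i2, the isoform of Cox4i1 known from lung and from oxygen sensing, was at 27.6 CPM in endothelial and 0.470 CPM in alpha cells (homozygous) and at 44.9 and 1.29 CPM (heterozygous), and rose by 4.30 (adjusted p = 0.00762). Both genes were at 15.8 CPM or more in stellate cells of each library, with Ndufa4l2 at 181 and 1067 CPM and Cox4i2 at 15.8 and 204 CPM in the homozygous and heterozygous stellate cells. Of 5 stellate markers 4 were also higher in endothelial than in alpha cells, beside 29.2% of all genes. They were Rgs5, Pdgfrb, Col3a1 and Col1a2, with log2 changes of 5.79, 4.79, 2.77 and 1.43. The part of stellate cell RNA in the endothelial levels of Ndufa4l2 and Cox4i2 was not tested. In tumor cells Ndufa4l2 was at 0.547, 0.0323 and 0.919 CPM and Cox4i2 at 0, 0.0501 and 0.248 CPM, under the filter and below both islets.

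Cox5a was the next in size of change, at 385 CPM in endothelial cells, against 104 CPM in alpha cells (homozygous), and 322 CPM, against 46.8 CPM (heterozygous), a log2 change of 2.32 (limma, adjusted p = 0.00167). The remaining 10 higher members had log2 changes of 0.81 to 1.47 and included Ndufa8, Ndufs8, Ndufv1, Sdha, Sdhb and Uqcrc1. Atp5e, Ndufv3, Ndufb2 and Ndufa6 were lower, by 1.35, 1.11, 0.67 and 0.65. Among mitochondrial members ND6 rose by 1.65 (adjusted p = 0.0257) and ND2 fell by 1.27 (adjusted p = 0.0176); ND2 was at 68.4 CPM in endothelial and 167 CPM in alpha cells (homozygous) and at 129 and 315 CPM (heterozygous). With totals free of hormones the split turned to 3 higher (Ndufa4l2, Cox4i2 and Cox5a) and 36 lower nuclear members, and with TMM factors to 3 and 28. Of the nuclear calls, those of these 3 genes and of the 4 lower ones were kept in both. The shares of all genes in those fits are not given here, so the counts are not set against a background.

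Isoform genes of limited tissue range were at most at 22.2 CPM in tumor cells and in alpha cells. Cox6a2 was at 14 CPM in homozygous and 163 CPM in heterozygous beta cells, and in the other classes of the heterozygous library at 9.57 to 25 CPM, against 0 to 12.4 CPM in those of the homozygous one. The classes other than beta were thus higher in the library with the higher beta cell level, and the part of free RNA in them was not tested. In alpha cells the ubiquitous isoform genes Cox4i1, Cox6a1, Cox6b1, Cox7a2 and Cox8a were at 1004, 632, 643, 454 and 881 CPM (homozygous), and at 872, 437, 545, 466 and 896 CPM (heterozygous). Their tissue-limited partners Cox4i2, Cox6a2, Cox6b2, Cox7a1 and Cox8b were at 0.470, 1.92, 18.0, 2.28 and 0 CPM (homozygous) and at 1.29, 16.4, 2.21, 1.69 and 0 CPM (heterozygous). Cox6b2 was at 22.2, 16.7 and 17.0 CPM in tumors A, B and C, next to 18.0 CPM in homozygous and apart from 2.21 CPM in heterozygous alpha cells. Its tumor change of 1.32 on the log2 scale did not pass (limma, adjusted p = 0.27), and it passed once the homozygous islets were left out (2.60, adjusted p = 0.0394). Cox7a1 was at 3.00, 12.9 and 3.15 CPM in tumors A, B and C, against 2.28 and 1.69 CPM, and Cox7b2 and Cox8c were at most at 1.38 and 0.101 CPM in the tumor or alpha cells of any library.

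**Figure D5:**
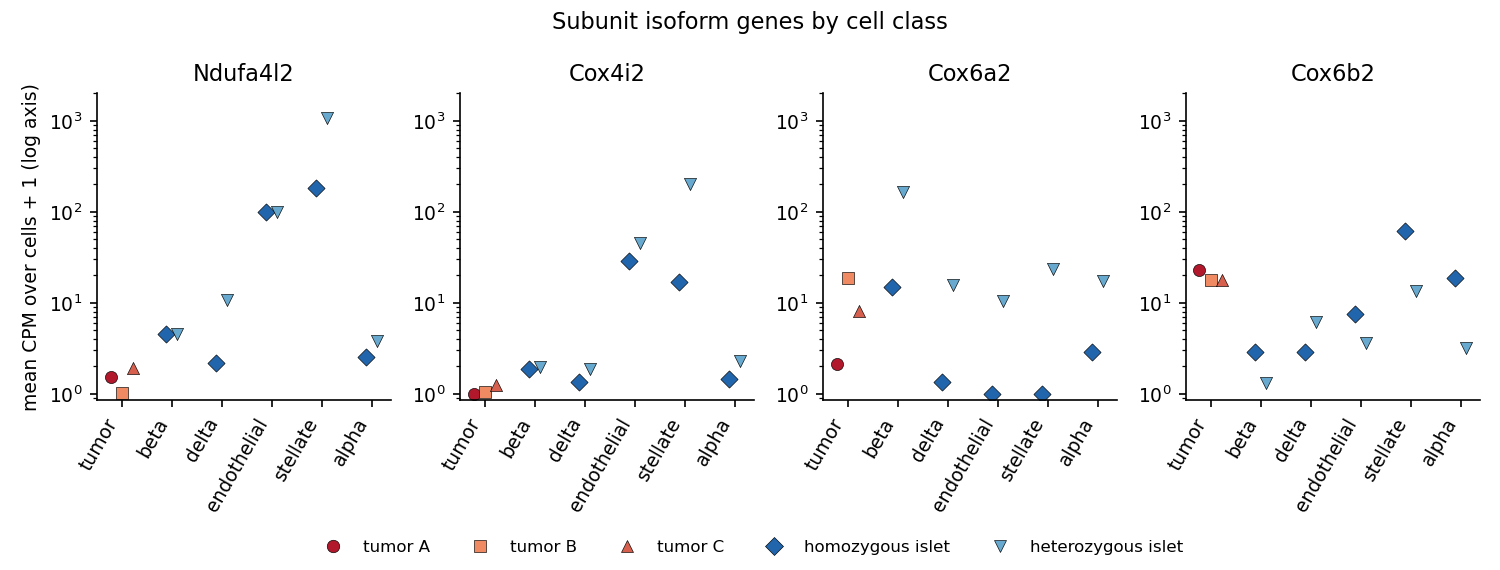
Mean CPM over cells plus 1 (log axis) of 4 isoform genes in tumor cells and in 5 islet classes, 1 point per library. Ndufa4l2 and Cox4i2 stand out in endothelial and stellate cells, Cox6a2 in heterozygous beta cells, and Cox6b2 is at 16.7 to 22.2 CPM in tumors.

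Genes that serve the complexes without being subunits were counted from 6 lists. In tumor cells 0 of 40 tested assembly factors, 0 of 13 genes of mitochondrial genome expression, 0 of 17 tricarboxylic acid cycle genes and 0 of 11 genes of cytochrome c, carriers and uncoupling passed in either direction, beside 2.08% of all genes that rose and 0.137% that fell. Of 10 tested biogenesis regulators 1 rose and 0 fell, and both ribosomal RNAs rose as given above. The regulator that rose was Pprc1, a coactivator of the PGC-1 family, at 20.8, 16.8 and 18.2 CPM in tumors A, B and C, against 6.56 and 6.88 CPM in homozygous and heterozygous alpha cells, without overlap (log2 change 1.34 ± 0.24 SE; limma, adjusted p = 0.0381). It kept its call in 10 of 19 alternatives and lost it with TMM factors, with hormone-free totals and without any 1 library (log2 change 1.01 to 1.47 over the alternatives). List medians relative to the median gene were 0.00 (assembly), 0.19 (genome expression), 0.17 (regulators), -0.04 (tricarboxylic acid cycle) and -0.14 (carriers) on the log2 scale, against -0.05 for the nuclear members. The summed level of the genome expression list was 451, 529 and 539 CPM in tumors, against 361 and 484 CPM, which overlapped.

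In beta cells 0 list genes rose, and 2 of 41 assembly factors, 2 of 19 genome expression genes and 4 of 11 carrier genes fell, beside 3.37% of all genes that fell and 0.386% that rose. Of these 8 calls 0 were kept with TMM factors and 0 with hormone-free totals. They were the copper chaperone gene Cox17 and Cox14, then Hsd17b10 and Slirp, and then the adenine nucleotide translocators Slc25a4 and Slc25a5, the phosphate carrier Slc25a3 and the channel gene Vdac2. Slc25a5 fell by 1.71 and Slc25a4 by 1.44 on the log2 scale (limma, adjusted p = 0.0244 and 0.0121). In endothelial cells 3 assembly factors (Cox10, Sco2 and Sdhaf2), 2 genome expression genes (Polg and Trmt10c), 2 regulators (Gabpa and Yy1), 3 cycle genes (Cs, Idh3b and Ogdh) and 3 carrier genes (Slc25a4, Vdac1 and Vdac2) and the ribosomal RNA Rnr2 rose, with 29.2% of all genes rising. Cox17 and Ssbp1 fell by 0.78 and 1.05. Ckmt1, the mitochondrial creatine kinase, fell by 4.58 in endothelial cells (adjusted p = 0.00345). Of these 17 calls 3 were kept with TMM factors and with hormone-free totals, those of the lower genes Cox17, Ssbp1 and Ckmt1.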

How the data were processed

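The authors deposited normalized UMIs per cell for each islet library and for the pooled tumor libraries; the deposited unit is a signal. As worked out from the values, and stated by no label, each cell's UMIs were divided by its total and multiplied by 9936 (islets) or 12219 (tumors). The cell totals in the deposited headers are counts, of all UMIs in islets and of exonic UMIs in tumors. The submitters' processing notes name CASAVA 1.8, bcl2fastq 2.17, GSNAP and GRCm38; the treatment of reads with several matches is not stated there. Recovery of UMIs gave whole numbers for 100% of values within 0.01. Cells classified by the authors were kept with at least 1000 UMIs and 500 genes and at most 20% mitochondrial UMIs, which all passed, and without doublets called by Scrublet (scanpy 1.11.5, expected rate 0.06; 17, 9 and 15 in tumors A, B and C, 1 and 8 in homozygous and heterozygous islets).

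Each cell was scaled to CPM by the authors' total, averaged per library and class, and fitted on log2(CPM + 1) with limma 3.58.1 (trended; R 4.3.3), with Benjamini-Hochberg adjustment at 0.05 and 5 CPM required in 2 libraries. Fold changes on this scale are understated for genes near 1 CPM. The class fit used 10 means of 5 classes with library as a block. As the unit is a signal, edgeR 4.0.16 and DESeq2 1.42.0 on recovered UMIs were alternatives for the tumor comparison, with 14 genes higher and 1 lower, and 400 and 267. Ratios between genotypes and clusters used pooled UMIs. P-values rest on libraries; nothing says how many animals each islet library pooled. The NRF1 element was shortened to 7 letters after a longer form had been searched. Nuclear copies were found with blastn 2.17.0, and the fits were tested on simulated data. Named genes were the mitochondrial members, members past a threshold (up to 12 each way), isoform pairs, core subunits (1 is not reported here) and called list genes; Cox7c, Sdhd, Atp5j, Atp5o and the members led with within libraries were chosen after their values were seen. The members and lists were chosen with earlier results of these data known.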

Additional observations from a re-analysis of the deposited data

Results flagged for a closer look

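Homozygous over heterozygous ratios on opposite sides of 1 in 2 cell classes were listed by counting intervals. The difference between classes was not tested. Each genotype has 1 library, so genotype and library cannot be told apart. The summed nuclear members had a homozygous over heterozygous ratio of 1.17 in alpha cells (1.16 to 1.18; 20670 CPM in homozygous and 17669 CPM in heterozygous cells) and of 0.933 in beta cells (0.924 to 0.941; 11374 CPM in homozygous and 12196 CPM in heterozygous cells); the alpha ratio divided by the beta ratio is 1.25. The summed mitochondrial members had a ratio of 1.03 in alpha cells (1.01 to 1.04) and of 0.851 in delta cells (0.819 to 0.884; 5904 CPM in homozygous and 6938 CPM in heterozygous cells), and the alpha ratio divided by the delta ratio is 1.21. Each class was set against alpha cells; the largest ratio of the mitochondrial sum was that of beta cells, at 1.35 (1.34 to 1.37; 8497 CPM in homozygous and 6277 CPM in heterozygous cells). The alpha cell ratio of the mitochondrial sum uses pooled UMIs; the means over cells were 6695 CPM in homozygous and 6858 CPM in heterozygous alpha cells, the other way round. Hormone transcripts took 51.6% of UMIs in homozygous and 37.6% in heterozygous delta cells. With totals free of them, the mean mitochondrial sum was 13240 CPM in homozygous and 11806 CPM in heterozygous delta cells. In alpha cells it was then 14943 CPM (homozygous) and 12803 CPM (heterozygous), so alpha and delta cells pointed the same way. The part of hormone transcripts in these ratios was not tested.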

How the results depend on the processing

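In tumors, 2 mitochondrial members were higher; the count was 0 with TMM factors, with totals without hormone transcripts, with edgeR and with no filter on low values, 7 with DESeq2 (ND1, ND2, ND4, ND5, COX1, COX2 and ATP6), and 0 to 5 with 1 library left out (0 without tumor A, 5 without B, 1 without C, 0 without either islet library). DESeq2 also called 2 nuclear members lower (Sdhd and Cox7a2l), and without the homozygous islets 1 nuclear member, Cox6b2, was higher (range 0 to 1). The mitochondrial median relative to all genes was 0.91 to 1.44 with 1 library left out. The nuclear one was -0.30 to 0.16, lowest without the heterozygous islets. In beta cells 0 nuclear members were higher and 11 lower; the counts were 1 and 1 with TMM factors, 1 and 0 without hormone totals, 1 higher with a pseudocount of 5 CPM and 7 lower with no filter. In endothelial cells 13 nuclear members were higher and 4 lower; they were 3 and 28 with TMM factors and 3 and 36 without hormone totals, and the mitochondrial counts of 1 and 1 were 0 and 6, and 0 and 7. With no filter 2 mitochondrial members were higher. Signs turned for Atp5b (-0.0795 with TMM, -0.17 without hormone totals), Atp5j (-0.0462 and -0.13), Ndufa10 (-0.0198 and -0.0939), Ndufc2 (-0.0747 and -0.18) and Sdhb (-0.0162 without hormone totals). Between genotypes 3 nuclear members were higher in homozygous alpha cells, against 11 without hormone totals and 8 in the largest alpha cluster of each library. In both of these 1 mitochondrial member (COX1) was higher, and in the largest clusters 0 were lower. Tumor over islet, the nuclear sum had a ratio of 1.01 without hormone totals, against 1.23, the mitochondrial sum 2.02, against 2.44, and their quotient 2.05, against 2.03; the sums themselves were larger with those totals. Using Tumor 1 cells alone for library C, or the largest alpha clusters, chosen after seeing the data, left ND2 and ATP6 called. The cause of these moves was not tested. Where no count over all genes is given for a setting, the member count is not set against a background.

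The tumor comparison could not be paired because the labels number only the tumor samples. The class fits compared classes within libraries, with library as a block. Leaving out 1 islet library leaves the class fits no residual degrees of freedom and was not run.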
